A study of Mus musculus with 2 samples.

Results

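Mitochondrial and peroxisomal fatty acid oxidation genes were compared between white fat from vehicle-treated and from entacapone-treated mice. The set was a fixed list of 35 genes of 37315 counted, chosen by gene symbol with earlier results of these data known. By textbook location, 19 act in mitochondria and 12 in peroxisomes, 3 (Eci2, Crat and Amacr) are known from both organelles, and Cpt1c belongs to the endoplasmic reticulum. Both libraries came from male C57BL/6 mice aged 23 weeks with obesity from a high-fat diet, and the depot is named inguinal in the series title. Entacapone is a drug for Parkinson disease that blocks catechol-O-methyltransferase, and the RNA demethylase FTO is another of its reported targets. Each group was 1 poly(A) RNA library, and for its dose, its duration and the number of mice behind it nothing is given in the sources used here. Every difference below is therefore one between 2 libraries, without replicate error, a significance test or a p-value.

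Fatty acid oxidation shortens fatty acids by pairs of carbons, through dehydrogenation, hydration, a second dehydrogenation and thiolysis. Mitochondria take long-chain fatty acids in through the carnitine shuttle and pass the electrons to the respiratory chain through the electron transfer flavoprotein. Peroxisomes take very long and branched chains in through ABC transporters, pass the electrons of the first step to oxygen, and hand shortened chains on as carnitine esters. White adipocytes mainly store and release fat, and their oxidation genes are expressed below the levels known from brown fat, liver and heart.

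The vehicle library held 13620056 counted reads and the entacapone library 12979673, of which the 35 genes took 0.756% and 0.775%. Levels are given as CPM, reads scaled to a common library size with edgeR's TMM factors, and each ratio is entacapone over vehicle with its exact 95% counting interval. These intervals cover counting error only. Reads carried no molecular identifiers, and variation between mice or dissections is not in them. Marker genes of other cell types differed between the libraries. Of 20 hepatocyte markers 18 were measured (a mean of at least 1 CPM) and 18 were lower in the entacapone library, with a summed level of 509 CPM in the vehicle library against 107 CPM in the entacapone library, and none of the 20 was at 0. Skeletal muscle markers were higher in 16 of 17 measured, at 1629 against 2556 CPM, with Tnnc2 listed at 0 in both. Macrophage markers were lower in 13 of 14 (2196 against 1207 CPM), and fibroblast and progenitor markers in 11 of 12 (8249 against 5198 CPM). The 12 adipocyte markers, 8 higher and 4 lower, summed to 61155 CPM in the vehicle library against 72030.1 CPM in the entacapone library. In bulk tissue, fewer cells of a type and less RNA per cell cannot be told apart, and the part of these shifts in the values below was not tested.

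Some sequences help in reading the counts. Acaa1a and Acaa1b encode the thiolases of the last peroxisomal step, and over coding sequences of 1272 bases each they were identical at 96.5% of positions, 44 bases apart. Of all 101-base windows of the Acaa1a transcript, 21.4% occurred word for word in Acaa1b, so reads from these windows could not be told apart. The stretch below, coding bases 241 to 300 counted from the start codon in GENCODE M21, has the most differences (9) of the successive 60-base blocks, and capitals mark the bases that differ.
Acaa1a: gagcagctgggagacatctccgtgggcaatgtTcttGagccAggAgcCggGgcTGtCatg
Acaa1b: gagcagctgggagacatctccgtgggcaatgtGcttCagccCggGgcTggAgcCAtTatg
The differing bases all lie in the second part of the block.

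Promoter windows from RefSeq (GRCm38.p6, 250 bases before to 50 after each start) were matched by symbol for 27 of the 35 genes. The GC box GGGCGG, searched on both strands as were all motifs, was in 20 of these 27 windows (74.1%), against 35.9% of 27025 gene windows. The letters TATAAA were in 0 of the 27, against 14.2% of all windows, and CCAAT was in 13 (48.1%, against 37.9%). All 27025 windows were used whether or not their genes were expressed here, and no share among expressed genes was computed. The nuclear receptor hexamer AGGTCA was in 6 (Acadm, Acadvl, Cpt1a, Cpt1c, Echs1 and Scp2), or 22.2% against 16.0%. The PPAR response element, a direct repeat of this hexamer with 1 base between, and TCAAGGTCA, known for estrogen-related receptors, both contain it. Neither was found in the 27 windows, against 0.0444% and 0.407% of all windows. At shares this low, 27 windows are too few to hold a match in most cases, so this absence says nothing about these genes. A match is a description of letters and not a binding site. Upstream bases are shown for the gene with the lowest ratio (Cpt1a), for the thiolase pair, and for the 85 bases between the GENCODE models of Hadha and Hadhb, written on the Hadhb strand. Capitals mark GC boxes, and in Cpt1a also the hexamer, while in the thiolase genes they mark CCAAT on either strand. Each stretch lies upstream of the gene's RefSeq start and in no GENCODE exon, and the RefSeq starts of Cpt1a, Acaa1a, Hadha and Hadhb lie inside the GENCODE gene models.
Cpt1a (chr19:3323125-3323284, + strand): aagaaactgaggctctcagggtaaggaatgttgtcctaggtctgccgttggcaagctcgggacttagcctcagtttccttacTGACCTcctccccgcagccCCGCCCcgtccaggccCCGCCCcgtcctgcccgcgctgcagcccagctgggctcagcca
Acaa1a (chr9:119341164-119341293, + strand): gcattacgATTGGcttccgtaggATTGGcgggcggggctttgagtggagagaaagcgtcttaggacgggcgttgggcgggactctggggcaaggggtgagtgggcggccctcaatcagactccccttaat
Acaa1b (chr9:119157094-119157223, - strand): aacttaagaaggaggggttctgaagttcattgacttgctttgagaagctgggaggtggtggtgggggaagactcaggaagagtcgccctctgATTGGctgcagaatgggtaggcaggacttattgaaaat
Hadhb (chr5:30155163-30155247, + strand): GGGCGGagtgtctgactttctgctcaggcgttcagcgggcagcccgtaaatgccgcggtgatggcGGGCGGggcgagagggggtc
The Hadhb stretch spans the whole gap between both GENCODE models and carries 2 GC boxes, the Cpt1a stretch 2 GC boxes and 1 hexamer.

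Oxidation genes of both organelles differed little between the libraries. Of the 35 genes, 33 reached a mean of 1 CPM, and 31 of these 33 lay within 1.3-fold, as did 73.0% of all 13361 measured genes. Beyond counting error, 17 of the 33 were higher in the entacapone library and 8 lower, where 20.2% of all measured genes were higher, 21.1% lower and 41.3% either. Deeper counts give narrower intervals and less counting scatter in the ratios. The measured members had a median of 3814 reads over both libraries where all measured genes had 583. The share within 1.3-fold was not matched for this depth. Of genes averaging 100 CPM or more, 44.3% were higher and 31.2% lower, against 14 and 6 of the 22 members at that level. At a limit of 1.5-fold, 0 members were higher (4.16% of all genes) and 1 was lower, Cpt1a (7.9% of all genes). At 2-fold, 0 were higher (1.66% of all genes) and 0 lower (3.5%).

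Gene by gene, more mitochondrial genes were higher than lower, while sums of CPM were similar in ratio for both organelles. Of all measured genes 20.2% were higher and 21.1% lower. Deeply counted genes, at 100 CPM or more, also leaned to higher, with 44.3% higher and 31.2% lower. Of the 18 measured mitochondrial genes, 11 were higher and 4 lower, with a median log2 ratio of 0.11 (with 0.5 CPM added). Peroxisomal genes were 4 higher and 4 lower of 11, with a median of -0.08. The same median over all measured genes was 0.00, and the difference of medians, peroxisomal minus mitochondrial, was -0.19 (-0.11 with means in place of medians). Summed over genes, the mitochondrial level was 4569 against 4811 CPM (ratio 1.05, 1.04 to 1.06) and the peroxisomal level 2521 against 2628 CPM (1.04, 1.03 to 1.06). These sums of CPM showed no such contrast, with Scp2 alone holding 11496 of the 34820 peroxisomal reads in the vehicle library. Per kilobase of exon, the sums were 1599 against 1745 CPM for mitochondria and 648 against 675 CPM for peroxisomes. The peroxisomal share of these was 28.8% in the vehicle and 27.9% in the entacapone library, or 20.3% and 18.7% without Scp2. Peroxisomal genes took 35.6% of the reads of both organelles in the vehicle library and 35.3% in the entacapone library, with binomial 95% intervals that overlap. The difference of medians has no test, since each group held 1 library and genes are not replicates.

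**Figure D1:**
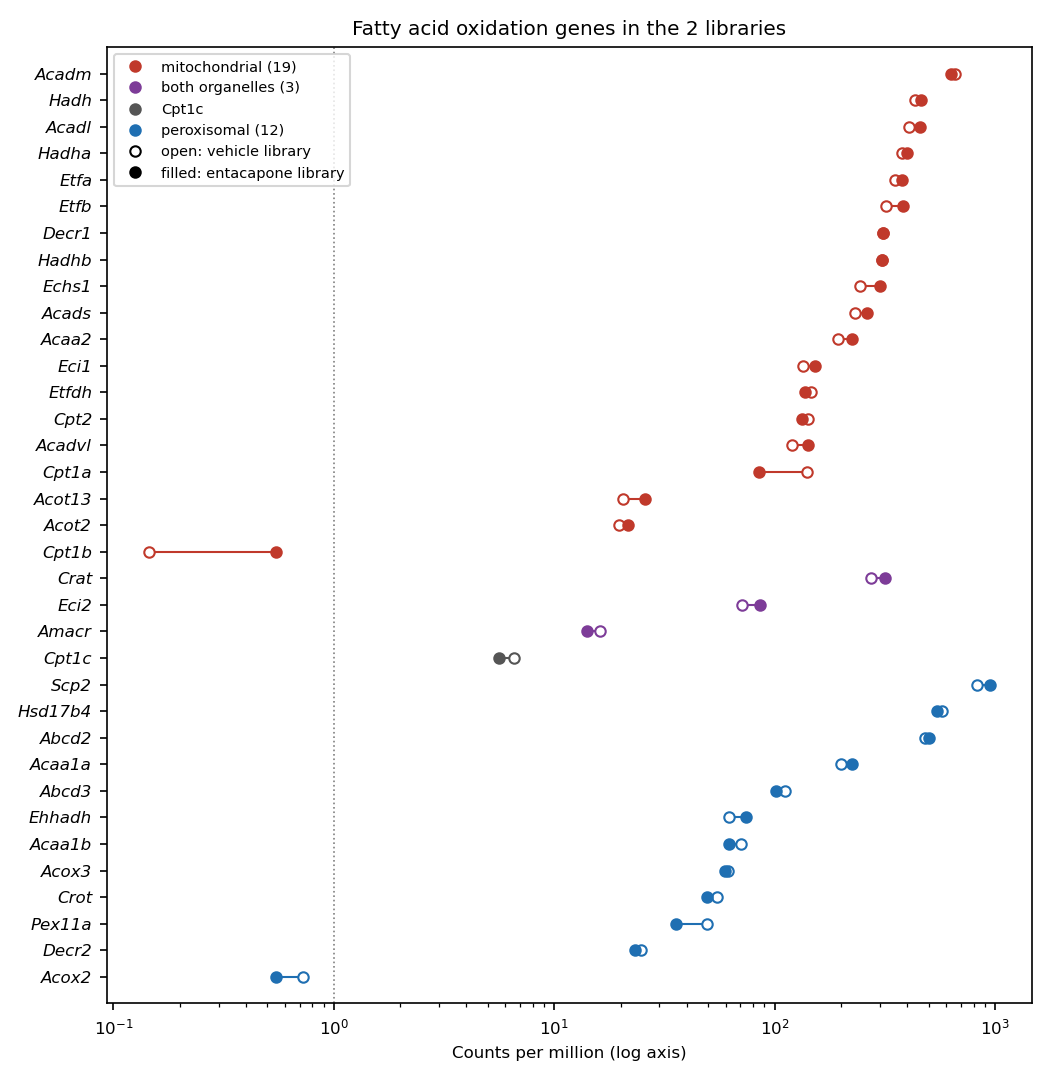
Level of each of the 35 genes in CPM on a log axis, with open points for the vehicle and filled points for the entacapone library, ordered by level within location. Cpt1b and Acox2 lie left of the dotted line at 1 CPM, and Cpt1a (139.9 against 84.9 CPM) has the longest line among the others.

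Carnitine shuttle genes were the mitochondrial role with the lowest summed ratio, 0.774 (0.737 to 0.813). Cpt1a encodes the acyltransferase of the outer membrane that controls fatty acid entry, and it lies at chr19:3322334-3385733 (GRCm38, as all positions here). It was at 139.9 CPM in the vehicle library against 84.9 CPM in the entacapone library, 1.65-fold lower (1.53 to 1.78), which was the lowest ratio of the 33. Cpt2, the matching enzyme of the inner membrane, stood at 142 against 133 CPM, with a ratio of 0.936 and an interval that only just left out 1 (0.877 to 0.999). The level of Cpt1a per kilobase of exon was 0.309 of that of Cpt2 in the vehicle library and 0.200 in the entacapone library, or 0.542 and 0.351 with the longest coding transcript as length. Cpt1c, a brain-type relative not known to serve mitochondrial entry, was at 6.59 against 5.63 CPM, and its interval held 1 (0.618 to 1.18).

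Cpt1b, the form known from muscle and brown fat, had 2 vehicle reads and 7 entacapone reads, or 0.145 and 0.547 CPM. Such counts show neither its level nor a difference at this depth (ratio interval 0.719 to 37.3). In GENCODE M21, 91.1% of the 101-base windows of the Cpt1b transcript are also in Gm44502, a gene that runs through Cpt1b on the same strand and is not in the counted list. Another muscle gene, Tnnc2, was listed at 0 in both libraries while Myh4, a fast-fibre myosin, was at 273 and 541 CPM, and 74.0% of the Tnnc2 exon bases overlap the gene Ube2c on the opposite strand. Whether overlapping annotation set the Cpt1b count was not tested.

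Acyl-CoA dehydrogenases, which begin each cycle for chains of different length, were mostly slightly higher. Acadvl, for very long chains, was at 119.6 CPM in the vehicle library against 142 CPM in the entacapone library, a ratio of 1.19 (1.11 to 1.27). Of its exon bases 42.9% overlap Dvl2 on the opposite strand, and the libraries do not mark strand. Acadl, the long-chain enzyme, stood at 406 against 455 CPM (ratio 1.12, 1.08 to 1.16). Acads, for short chains, had 233 against 264 CPM (1.13, 1.08 to 1.19). Acadm, the medium-chain enzyme, had the most reads of the mitochondrial genes and went the other way, at 660.2 against 630.2 CPM (0.955, 0.926 to 0.984). The ratio of Acadl to Acadm per kilobase of exon was 1.20 in the vehicle and 1.41 in the entacapone library. With the longest coding transcript as length it was 0.658 and 0.772, so which of them is the more abundant depends on the gene model. Gene length cancels in the change between libraries, which is therefore the same with either length.

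Enzymes of the later steps were level or higher. Echs1, the short-chain hydratase, was at 245 CPM in the vehicle library against 301 CPM in the entacapone library, a ratio of 1.23 (1.17 to 1.28). Acaa2, the mitochondrial thiolase, stood at 195 against 225 CPM (1.16, 1.10 to 1.22), and Hadh, the short-chain hydroxyacyl-CoA dehydrogenase, at 436 against 460.5 CPM (1.06, 1.02 to 1.10). Hadha and Hadhb encode the subunits of the trifunctional protein, which carries out the last steps for long chains. They lie head to head at chr5:30118304-30155162 and chr5:30155248-30184593 and the stretch printed above separates their models. Hadha had 380.2 against 397 CPM and Hadhb 308 against 307 CPM, so that the ratio of Hadha to Hadhb did not differ beyond counting error (log2 change 0.07, -0.02 to 0.15). Of the Hadhb windows 52.6% also occur in another gene, chiefly Gm13910, which was listed with 33 and 27 reads.

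Electron transfer genes were higher for both flavoprotein subunits and lower for the separate oxidoreductase. Etfb, the beta subunit of the flavoprotein, had the highest level per kilobase of all members in both libraries. It was at 320.4 CPM in the vehicle library against 383 CPM in the entacapone library (ratio 1.19, 1.15 to 1.24). Of its windows 65.2% are shared with Gm45233, a gene that is not in the counted list. Etfa, the alpha subunit, stood at 354 against 381 CPM (1.08, 1.03 to 1.12). Etfdh, which passes the electrons to ubiquinone, was at 147 against 137 CPM (0.936, 0.877 to 0.998). All 3 differed by less than 1.3-fold.

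Of the auxiliary enzymes for unsaturated chains and the thioesterases, none with a mitochondrial role was lower beyond counting error. Eci1, an isomerase for unsaturated chains, stood at 135 against 152 CPM (1.13, 1.06 to 1.20). Decr1, a reductase for such chains, was the most even gene at 309 against 310.4 CPM (log2 ratio 0.00, -0.06 to 0.07). Eci2, an isomerase of both organelles, was at 70.9 against 85.5 CPM (1.20, 1.10 to 1.31). The thioesterases, which release free fatty acids from CoA, were low: Acot13 had 20.6 against 25.9 CPM (1.26, 1.07 to 1.48), the highest ratio among measured members, and Acot2 had 19.8 against 21.6 CPM (1.09, 0.920 to 1.29). Of the Acot2 windows 17.0% are shared with its neighbour Acot1.

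**Figure D2:**
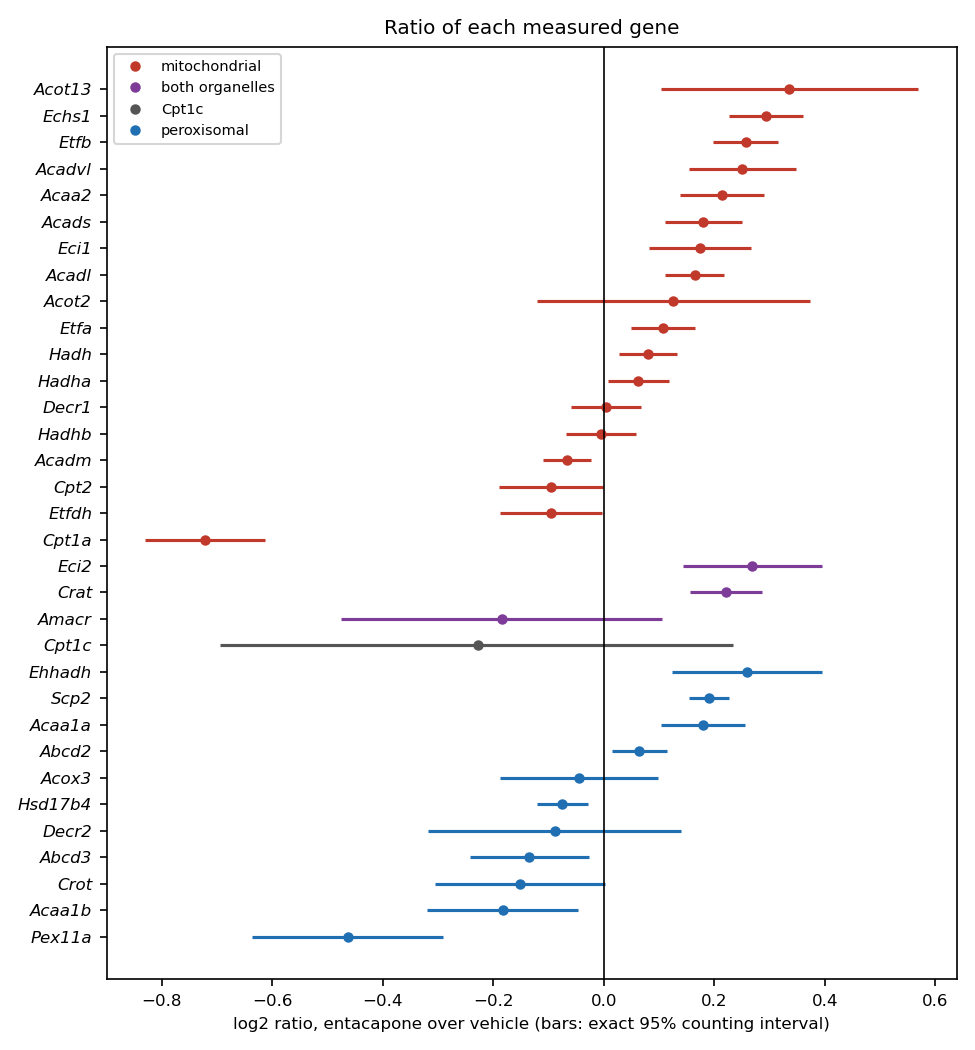
Log2 ratio of entacapone over vehicle for the 33 measured genes, with exact 95% counting intervals as bars, grouped by location. Mitochondrial genes lie mostly right of 0, with Cpt1a at -0.72 apart from the rest, and the peroxisomal genes spread from 0.26 (Ehhadh) to -0.46 (Pex11a).

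Peroxisomal genes began with the membrane transporters. Abcd2, an ABC transporter for very long chains that is abundant in fat, stood at 482 CPM in the vehicle library against 503 CPM in the entacapone library (ratio 1.05, 1.01 to 1.08). Abcd3, which imports branched chains and bile acid precursors, was at 112 against 102 CPM (0.910, 0.845 to 0.981). Per kilobase, Abcd2 was 4.79 times Abcd3 in the vehicle and 5.49 times in the entacapone library, a log2 change of 0.20 (0.08 to 0.32). With coding transcripts as length it was 2.72 and 3.12 times.

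Of the oxidases, Acox3, for branched chains, stood at 61.4 against 59.5 CPM with an interval that held 1 (0.878 to 1.07). Acox2, the branched-chain oxidase of bile acid synthesis, which is mainly a liver gene, had 10 and 7 reads and was not measured. The bifunctional enzymes carry out hydration and the second dehydrogenation, and they lay on opposite sides. Ehhadh (chr16:21761287-21787807), the PPAR-alpha-induced form, was at 62.0 CPM in the vehicle library against 74.2 CPM in the entacapone library (1.20, 1.09 to 1.31). It is also abundant in liver, whose markers were lower in the entacapone library. Hsd17b4, the form for very long and branched chains, was 573 against 544 CPM (0.949, 0.919 to 0.980). Hsd17b4 was the more abundant in both libraries, 8.09 times Ehhadh per kilobase in the vehicle library and 6.42 times in the entacapone library.

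The thiolase pair also lay on opposite sides. Acaa1a (chr9:119339676-119350299) was at 199 CPM in the vehicle library against 226 CPM in the entacapone library (1.13, 1.07 to 1.19). Acaa1b (chr9:119148023-119157093), best known from liver, stood at 70.4 against 62.0 CPM (0.881, 0.801 to 0.968). Their ratio per kilobase was 1.26 in the vehicle and 1.62 in the entacapone library, a log2 change of 0.36 (0.21 to 0.52), which covers counting error but not the reads both genes share. With coding transcripts as length the ratios were 2.71 and 3.49. Hepatocyte markers were lower in the same library, and their part in the Acaa1b value was not tested. Scp2, which yields a thiolase for branched chains and a separate sterol carrier protein, had the most reads of all members, at 832 against 949.6 CPM (1.14, 1.11 to 1.17). Of its windows 32.0% also occur in another gene, chiefly Scp2-ps2, a copy that was listed with 0 and 5 reads.

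Export and accessory genes were mixed. Crat and Crot, the carnitine acetyl- and octanoyltransferases that turn short and medium chains into carnitine esters, stood at 273 against 318 CPM (1.17, 1.11 to 1.22) and at 55.0 against 49.5 CPM (log2 ratio -0.15, -0.31 to 0.00). The Crot interval held 0 by a narrow margin. Decr2, the peroxisomal reductase for unsaturated chains, had 24.7 against 23.2 CPM (0.940, 0.802 to 1.10). Amacr, the racemase for branched chains and bile acid precursors, had 16.1 against 14.1 CPM (0.880, 0.719 to 1.08). Pex11a (chr7:79735957-79743131), a membrane protein that elongates peroxisomes before division, was at 49.4 CPM in the vehicle library against 35.9 CPM in the entacapone library, 1.38-fold lower (1.22 to 1.56). It was the lowest peroxisomal gene and second only to Cpt1a among all 33.

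**Figure D3:**
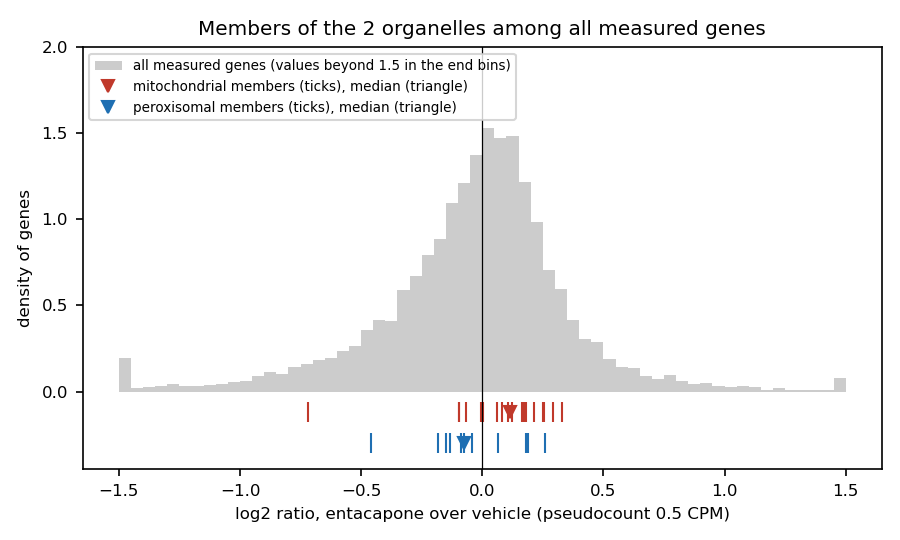
Histogram of log2 ratios of all 13361 measured genes, with ticks for mitochondrial and peroxisomal members and a triangle at each median (0.11 and -0.08). Both sets lie within the main body of the distribution, Cpt1a (-0.72) being the lowest tick.

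In levels per kilobase of exon, the measure used to compare genes with each other, mitochondrial transcripts exceeded peroxisomal ones in both libraries. The median gene stood at 59.3 CPM per kilobase for mitochondria and 18.9 for peroxisomes in the vehicle library, and at 55.5 and 20.1 in the entacapone library. Summed over genes, peroxisomal transcripts made up 28.8% of the vehicle and 27.9% of the entacapone level. Scp2 decides much of that share, which was 20.3% and 18.7% without it. Etfb, Scp2, Acadl, Etfa, Acadm and Hsd17b4, in this order, were the highest in both libraries. With the longest coding transcript as length, Etfb remained first, Acadm and Scp2 exchanged the next places between the libraries, and Echs1 moved from 29.6 to 158 CPM per kilobase in the vehicle library, so the order of genes depends on the gene model, for Echs1 from rank 20 to rank 8 in that library.

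Fatty acid activation and carnitine supply come before the listed steps. The counts for this and the following lists stand beside 20.2% higher and 21.1% lower of all measured genes, or 44.3% and 31.2% at 100 CPM or more. Of 12 measured activation genes 3 were higher and 4 lower (median log2 ratio -0.01). Slc27a1, a transport protein that activates fatty acids, stood at 1077 against 1356 CPM, and Acsl1, the main long-chain acyl-CoA synthetase of fat, at 1916 against 1410.2 CPM (log2 -0.44, -0.47 to -0.42). Highest in ratio were Acsm3 (0.58) and Acsm5 (0.51), and lowest Slc27a2 (-5.60, -8.67 to -3.72), which is abundant in liver, and Acsl3 (-0.84). Of 8 measured genes of carnitine supply and malonyl-CoA control 4 were higher and 1 lower (median 0.10). Slc25a29, a mitochondrial carrier, had 29 and 98 reads (1.87, 1.26 to 2.52). Acaca and Acacb, the carboxylases that make the CPT1 inhibitor malonyl-CoA, stood at 0.58 (0.51 to 0.65) and 0.52 (0.45 to 0.59). Mlycd, which breaks malonyl-CoA down, was at 0.24 (0.10 to 0.37). Slc25a20, the carnitine-acylcarnitine carrier, was level at -0.04 (-0.16 to 0.08), Prkaa2, a kinase subunit of AMPK, was at -0.13 (-0.50 to 0.24), and Slc22a5, the carnitine importer, was lowest at -0.19 (-0.36 to -0.02). Cpt1a was lower in the same library in which the carboxylases and Mlycd were higher. What these differences mean for fatty acid entry was not tested.

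Further enzymes of both organelles and the peroxins were counted in the same way. Of 15 further genes listed as mitochondrial acyl-CoA enzymes 10 were higher and 1 lower (median 0.25). Not all genes of this list act only in mitochondria, and the Acot1 enzyme is cytosolic. Acot1 (0.60, 0.04 to 1.17) and Acad12 (0.51) were highest, and Acad9, also an assembly factor of the respiratory chain, was at -0.15 (-0.26 to -0.03), with Acot9 next at -0.12 (-0.26 to 0.01). Of 28 further peroxisomal genes 22 were measured, with 13 higher and 0 lower (median 0.11), and some of these genes also act elsewhere in the cell. Below the minimum of 1 CPM, Hao1 (6 vehicle and 0 entacapone reads), Agxt (11 and 0) and Baat (13 and 2) had intervals below 1. The other unmeasured genes of this list had intervals that held 1. Cat, catalase, which removes the hydrogen peroxide of the oxidases, stood at 914 against 1228 CPM (0.43, 0.39 to 0.46). Acot5 (1.57, 0.90 to 2.30) and Pxmp2 (0.79) were highest, and Acot4 (-0.39, -1.05 to 0.25) and Nudt7 (-0.14, -0.31 to 0.02) lowest, both with intervals that held 0. Peroxin genes, which build peroxisomes and import their proteins, were 2 higher and 5 lower of 16 (median -0.09). Pex6, part of the complex that recycles the import receptor, was at 0.21 (0.09 to 0.34), and Pex5l, a relative of that receptor, was at -0.86 (-1.14 to -0.59).

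Regulators and targets of oxidation genes were split. Of 16 regulators 7 were higher and 6 lower (median 0.10). Ppara, the receptor known to drive oxidation genes, had 111 and 65 reads (-0.66, -1.13 to -0.21), and Hnf4a, a liver factor, had 30 and 1 (-4.80, -10.15 to -2.21). The coactivator gene Ppargc1a was highest at 0.84 (0.14 to 1.55) on 29 and 48 reads, followed by the corepressor gene Nrip1 (0.39). Of 18 measured PPAR target genes outside the 35, 7 were higher and 9 lower (median -0.13). Fabp3 (1.08), also a muscle gene, and the lipid droplet gene Cidea (0.90) were highest, and Cyp4a10 (-3.89, -6.22 to -2.26) and Cyp4a14 (-3.53), hydroxylases abundant in liver, lowest. Pdk4, a kinase that spares glucose, was at 403 against 581 CPM. Of 10 ketone body genes 3 were higher and 2 lower (median 0.07), with Slc16a7 (0.65) and Acat1 (0.30) highest and Bdh2 (-1.10) and Bdh1 (-1.01, -2.13 to 0.03) lowest. Skeletal muscle and hepatocyte markers differed between the same libraries, and their part in these values was not tested.

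**Figure D4:**
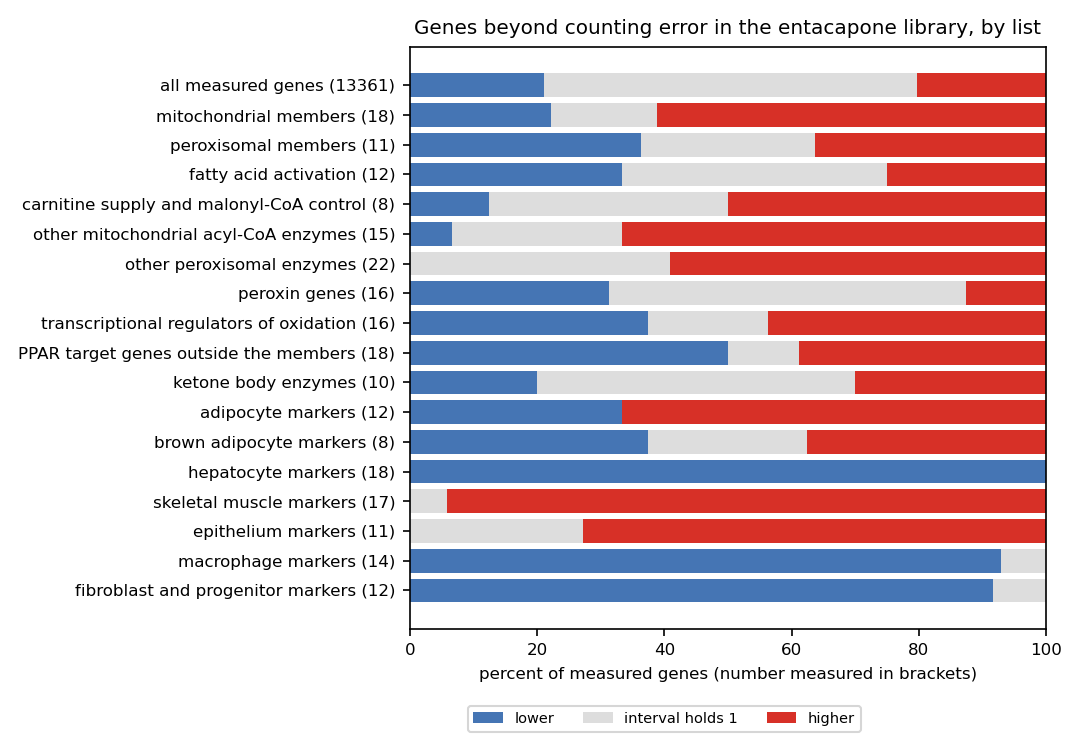
Percent of measured genes that were lower (blue), within counting error (grey) or higher (red) in the entacapone library, for all measured genes, both organelles, the related pathway lists and the cell type lists, with the number measured in brackets. The mitochondrial members (11 higher, 4 lower) hold more red than blue and the peroxisomal ones (4 and 4) as much of each. Of all measured genes 20.2% were higher and 21.1% lower. Among genes at 100 CPM or more, not drawn, 44.3% were higher and 31.2% lower. Hepatocyte markers are all lower and skeletal muscle markers 16 of 17 higher.

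Medians of the cell type lists were above 0 for epithelium and skeletal muscle markers and near 0 for adipocyte and brown adipocyte markers. They were below 0 for the macrophage list and the fibroblast and progenitor list, and far lower for hepatocyte markers. Hepatocyte markers had a median log2 ratio of -3.01, from Apoa4 (-5.99, -9.05 to -4.11) and Fabp1 (-3.95) to Alb (-1.61), the most abundant, and Serpina3k (-1.39). Skeletal muscle markers had a median of 0.69, with Myh7 (3.35) and Myh1 (1.70) highest, Acta1, the most abundant, at 0.45, and Ckm (0.33) and Mylpf (0.09) lowest. Epithelium markers were higher in 8 of 11 (median 1.13, 30.7 against 100.0 CPM in sum), with Krt17 (2.22) and Krt5 (2.19) high and Krt18 (0.56) and Krt10 (0.08) low. Brown adipocyte markers were 3 higher and 3 lower of 8 (median -0.05). Among them Cidea (0.90) and Cox8b (0.84) were highest, and Ucp1, the uncoupling protein, was lowest on 45 and 8 reads, with Elovl3 next at 22 and 6. Macrophage markers had a median of -0.98, from Adgre1 (-1.58) and Trem2 (-1.44) to Lgals3 (-0.43) and Cd14 (-0.11), with Lyz2 the most abundant at 508 against 247 CPM. Fibroblast and progenitor markers had a median of -0.74, with Dpp4 (-1.40) and Pi16 (-1.30) lowest, Ly6a (-0.20) and Pdgfra (-0.01) highest, and Col3a1 the most abundant at 3716 against 2302 CPM. Adipocyte markers had a median of 0.09, with Cfd (1.61) and Retn (0.54) highest and Lep (-0.42) and Pparg (-0.32) lowest, and Fabp4 was the most abundant at 15029 against 17900.4 CPM.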

How the data were processed

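Raw counts of reads for each Ensembl gene were deposited, 1 table per library. Per the labels' protocols, libraries were made with a TruSeq RNA v2 kit, which does not mark strand, and sequenced with reads of 101 bases. The submitters' processing notes name TopHat2 2.1.1, HTSeq 0.6.0 and mm10, with the annotation release and counting mode not given in the sources used here. Symbols and coordinates came from GENCODE M21 (GRCm38, the assembly of mm10), which matched 35533 of 37315 genes. The unmatched genes held 0.181% and 0.188% of the counts and stayed in the library sizes.

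CPM used effective library sizes from edgeR 4.0.16 (TMM). Ratios carry exact 95% intervals (Clopper-Pearson), from the fraction of each gene's reads that fell in the entacapone library. A gene was measured at a mean of at least 1 CPM, and higher or lower where its interval left out 1, or on the log2 scale 0. List medians used log2 values with 0.5 CPM added. At 100 reads per library the interval spans 1.33-fold to either side. Intervals for changes of a ratio between 2 genes were computed from the log counts. Levels per kilobase used the union of a gene's exons. The intervals were tested on simulated data that held counting error only. Such data cannot show variation between mice or dissections. Alternatives covered scaling (DESeq2 1.42.0 size factors, total counts, upper quartile), expression minimum, interval, fold limit, pseudocount, summary, gene location and gene length.

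All 35 members are named, and of each related list the 2 highest and 2 lowest measured genes by log2 ratio with 0.5 CPM added, with the most abundant of each cell type list. Acsl1, Slc27a1, Slc25a20, Acacb, Mlycd, Cat, Pdk4, Tnnc2 and Myh4 were added after their values were seen. The members and lists were chosen with earlier results of these data known. Some genes that the rule names are not reported here. The listed symbol Mmut matched no gene and was left out.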

Additional observations from a re-analysis of the deposited data

How the results depend on the processing

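With DESeq2 size factors, total counts or upper-quartile scaling, the counts of higher and lower members stayed within 1.5 times and the medians of both organelles kept their sign. Members whose call changed numbered 3, 4 and 2: Hadha, Abcd2, Hadh, Cpt2 and Etfdh lost it under at least 1 of these scalings, and Crot became lower. The medians also kept their sign with other pseudocounts, other expression minima, means, other assignments of genes to organelles, without liver-rich and muscle-rich members, and, in alternatives chosen after seeing the data, without Scp2, without Cpt1a and Pex11a, or without 7 members that share 20% or more of their exon bases or windows with another gene. A 99% interval left 5 lower members in place of 8, a limit of 1.5-fold left 0 higher and 1 lower, and one of 2-fold 0 and 0.

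The peroxisomal share of the level per length (28.8% in the vehicle and 27.9% in the entacapone library) was 27.0% and 26.2% without liver-rich and muscle-rich members, 27.6% and 26.8% with the longest transcript as length, and 31.0% and 30.2% with genes of both organelles counted as peroxisomal. In the added alternatives it was 26.1% and 25.5% with coding transcripts, 20.3% and 18.7% without Scp2, and 21.0% and 19.5% without the 7 sharing members. The first of each pair was higher in all of these, which reuse the counts of the same 2 libraries and are no independent support. The cause of these shifts is the set of genes or lengths that each alternative uses. No paired analysis was possible because each group held 1 library.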
